A study of Rattus norvegicus with 18 samples.

Results

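Kcnj11, Abcc8, Slc2a2, G6pc2 and Slc30a8 were examined as the genes by which a beta cell senses glucose and sets its membrane potential. Their probe sets were those that the platform annotation ties to 1 of these genes and to no other. Of the 5 genes, 3 were measured, with 3 probe sets for Kcnj11 (1369782_a_at, 1387698_at and 1391007_s_at), 1 for Abcc8 (1369632_a_at) and 1 for Slc2a2 (1387228_at). They are 5 of 31042 probe sets, of which 20826 carry a single gene name, for 14217 different genes. For G6pc2 and Slc30a8 the annotation used here lists 0 probe sets, so both were not analysed here.

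The cells were clone #4S2, a rat INS-1 insulinoma line in which doxycycline switches on a mutant proinsulin fused to green fluorescent protein (Ins2(C96Y)-EGFP). The C96Y change replaces a cysteine of the A chain, and the misfolded product is retained in the endoplasmic reticulum (ER), as in the diabetic Akita mouse. Cultures were kept with 2 µg/ml doxycycline or without it (control), for 24 h, for 48 h and for 5 days, and the 6 groups held 3 arrays each, 1 from each of 3 experiments, 18 arrays in all. The design asks how RNA levels change while the mutant proinsulin is made. All cells of all groups carry the pTet-ON activator and the transgene, derive from 1 clone, and descend from cells sorted for the brightest fluorescence after induction. Doxycycline-treated cells without the transgene were not analysed here, so the action of doxycycline and that of the mutant proinsulin cannot be told apart. The paper reports, without showing the data, that this dose left Grp78 and Chop unchanged in parental INS-1 cells. It reports no such control for the genes examined here.

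In a beta cell, glucose enters through a transporter, which in rodents is chiefly GLUT2, the product of Slc2a2, and is phosphorylated and metabolised. The resulting rise in ATP relative to ADP closes the ATP-sensitive potassium (KATP) channel, the membrane depolarizes, calcium enters and insulin granules are released. Kcnj11 encodes Kir6.2, the pore of that channel, and Abcc8 encodes SUR1, its regulatory subunit and the receptor of the sulfonylurea drugs, and neither subunit reaches the cell surface well without the other. G6pc2 encodes an islet glucose-6-phosphatase that opposes the phosphorylation step, and Slc30a8 encodes ZnT8, which loads insulin granules with zinc.

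Signals below are linear units after quantile normalization, which gives all arrays 1 distribution, and ratios are doxycycline over control within 1 experiment, on the log2 scale unless said otherwise. All 5 probe sets lay in the brighter 50% of the array, with mean signals between the 81.6th percentile (Kcnj11 1369782_a_at) and the 99.6th (Slc2a2). The line carried beta-cell RNA. Of 12 beta-cell markers, 11 had a probe set and all 11 were in the brighter 50%, Ins1, Ins2 and Iapp above the 99th percentile. At 24 h and 48 h 14 ER stress genes ran with the labels, and their median ratio was between 0.98 and 1.43 in each of the 6 pairs, for example Sdf2l1 (1.99 at 24 h, adjusted p = 0.0237, and 1.86 at 48 h, adjusted p = 0.00669), Creld2 (1.51 and 1.37) and Fkbp11 (1.25 and 1.59). At 5 days experiments 2 and 3 gave 1.36 and 1.17, but experiment 1 gave -1.49, with 0 of 14 genes higher in the library labelled doxycycline. The library labelled doxycycline 5 days, experiment 2, also stood apart, where the 3' over 5' signal of GAPDH was 2.91, the other 17 arrays lying between 1.05 and 1.19 (a larger value points to shorter RNA or cDNA). Each fold change at 5 days rests on these libraries and is given as labelled and with each experiment left out.

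Kcnj11 had the lowest doxycycline to control ratios of the 3 genes at 24 h and 48 h. It was lower on every probe set in every pair at both times, and at 48 h it fell by 0.81 on the log2 scale (SE 0.07), to 0.570 of control. On its brightest probe set, 1391007_s_at, which stands for the gene below, the control signals at 48 h were 2846, 3354 and 3215, and the doxycycline signals were 1554, 1910.3 and 1915 in experiments 1, 2 and 3. The groups did not overlap, and the highest doxycycline array was below the lowest control array by more than the range of either group. The means were 3138 ± 263 in control and 1793 ± 207 with doxycycline (SD, n = 3 each). The difference passed limma's moderated test across 15521 probe sets (adjusted p = 0.0187). At this time 1.19% of the tested probe sets passed as lower and 2.33% as higher.

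The other Kcnj11 probe sets gave the same direction at 48 h. On 1387698_at the control signals were 2071, 2226 and 2086 and the doxycycline signals 1020, 1208 and 986. This was a fall of 0.99 on the log2 scale (SE 0.08, adjusted p = 0.0139), to 0.502 of control. On 1369782_a_at the control signals were 1662, 1139 and 1083 and the doxycycline signals 693, 725 and 588, a fall of 0.93 (SE 0.13, adjusted p = 0.0381). All 3 probe sets of Kcnj11 thus passed at 48 h, each without overlap between the groups. They interrogate 1 gene in the same RNA and are not independent of each other. The study listed the genes whose ratio was at least 2-fold in 2 or more experiments, and 1387698_at met this rule at 48 h in 2 experiments, as did 0.187% of tested probe sets. Kcnj11 is among the genes the study names as reduced, so its fall here is not independent evidence of that choice. The call of 1391007_s_at was lost when any 1 experiment was left out, with 2 pairs remaining (adjusted p = 0.0789 to 0.144). The log2 fold change then lay between -0.84 and -0.78. The call was also lost when dim probe sets were kept in the test (adjusted p = 0.344), which cannot alter the fold change.

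At 24 h the fall of Kcnj11 had not passed the threshold. On 1391007_s_at the signals were 2931, 2775 and 2663 in control and 1967, 1762 and 1909 with doxycycline. The groups did not overlap, and the ratios of the 3 experiments were -0.58, -0.66 and -0.48. The log2 fold change was -0.57 (SE 0.08, adjusted p = 0.0689), with 1387698_at at -0.65 (adjusted p = 0.0657) and 1369782_a_at at -0.59 (adjusted p = 0.101). At 24 h 0.0129% of tested probe sets, or 2, passed as lower and 0.193% as higher. Fitted together with the 48 h arrays, on 12 arrays with 6 pairs, the 24 h difference of Kcnj11 passed (adjusted p = 0.0136), where 0.29% of probe sets passed as lower.

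Abcc8 was lower with doxycycline in all 6 pairs of 24 h and 48 h, by less than Kcnj11 in each pair. At 48 h its control signals were 2232, 2825 and 2912 and its doxycycline signals 1547, 2166 and 2211. Experiment 1 was the lowest array of both groups, and the groups stayed apart only narrowly. The ratios were -0.53, -0.38 and -0.40, and the log2 fold change of -0.44 (SE 0.07) did not pass (adjusted p = 0.0548). It passed on the 12 arrays of both times (adjusted p = 0.0101), where 4.73% of probe sets passed as lower. At 24 h the control signals were 2910, 2562 and 2492 and the doxycycline signals 2307, 2105 and 2080. The groups again did not overlap, with a log2 fold change of -0.29 (SE 0.07, adjusted p = 0.182). On the linear scale the mean ratio of Abcc8 was 0.816 ± 0.022 at 24 h and 0.740 ± 0.041 at 48 h, beside 0.674 ± 0.041 and 0.570 ± 0.025 for Kcnj11 (SD, n = 3). Ratios of different probe sets were not tested against each other.

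Slc2a2 differed least. At 48 h its control signals were 16088, 17297 and 17537 and its doxycycline signals 14201, 14855 and 14855, which do not overlap. The groups did overlap in the deposited signals, before quantile normalization. There the highest doxycycline array (17212, experiment 3) was above the lowest control array (16724, experiment 1). The ratios were -0.18, -0.22 and -0.24, and the log2 fold change of -0.21 (SE 0.07) did not pass (adjusted p = 0.154, and 0.0669 on 12 arrays). At 24 h the control signals were 15066, 15348 and 19095 and the doxycycline signals 13752, 14430 and 17537. The groups overlapped, since experiment 3 was the highest array of both, although each pair was lower with doxycycline (log2 fold change -0.11, SE 0.07, adjusted p = 0.499). The probe set is among the brightest of the array, where a microarray responds least to a change in RNA, and whether this lowers its ratios was not tested.

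Over both times, all 5 probe sets were lower with doxycycline in all 6 pairs, as were 10.7% of tested probe sets. The doxycycline arrays lay below all control arrays for 3 of the 5 at 24 h, where 3.72% of tested probe sets did so, and for 5 of 5 at 48 h, where 10.8% did so. These counts are of normalized signals, and the deposited signals of Slc2a2 overlapped at 48 h. The exceptions at 24 h were Kcnj11 1369782_a_at and Slc2a2. In bulk RNA of cultures, fewer cells expressing a gene and less of its RNA per cell cannot be told apart.

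**Figure D1:**
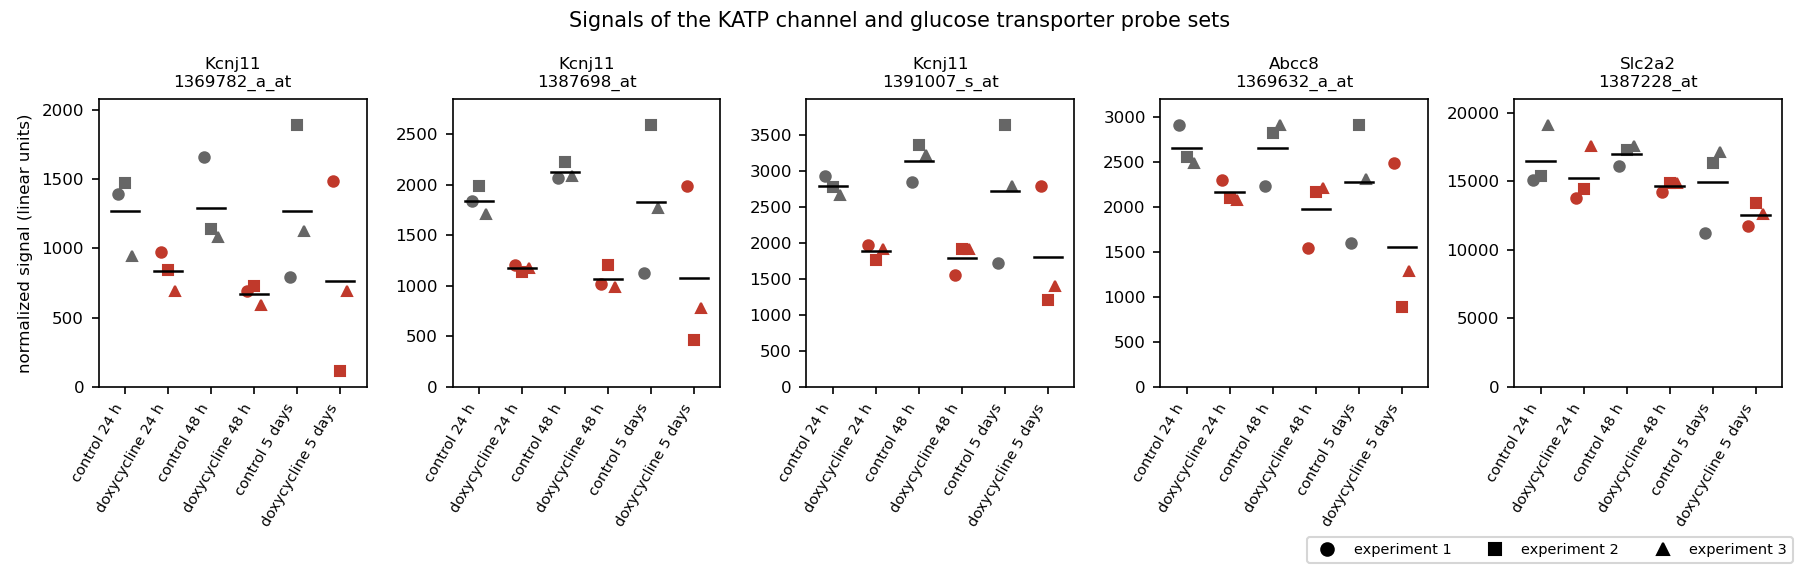
Normalized signal (linear units, axis from 0) of the 5 probe sets on the 18 arrays, with control arrays in grey, doxycycline arrays in red, a symbol for each experiment and a bar at the group mean. At 48 h the 3 doxycycline arrays lie below the 3 control arrays in all 5 panels, while at 5 days experiment 1 (circles) lies the other way round.

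The differences at 48 h were numerically larger than those at 24 h for all 3 genes, but the change between the times did not pass. The 48 h effect minus the 24 h effect was -0.24 (SE 0.09, adjusted p = 0.735) for Kcnj11, -0.14 (adjusted p = 0.800) for Abcc8 and -0.10 (adjusted p = 0.848) for Slc2a2. Here limma passed 0 of 15521 probe sets, or 0%, against 516 lower and 520 higher at an unadjusted p under 0.05. In untreated cultures, 48 h against 24 h, the log2 fold changes were 0.17, -0.01 and 0.05 (adjusted p = 0.999 for each), again with 0 probe sets passing and 225 lower and 164 higher at an unadjusted p under 0.05.

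At 5 days, as labelled, none of the 3 genes passed. The 5-day control signals of Kcnj11 1391007_s_at were 1725, 3634 and 2795 and the doxycycline signals 2793, 1200 and 1403. The groups overlapped for all 5 probe sets (all doxycycline arrays lay below all control arrays for 2.76% of tested probe sets), as experiment 1 ran opposite to experiments 2 and 3. The ratios of Kcnj11 were 0.70, -1.60 and -0.99, those of Abcc8 were 0.64, -1.72 and -0.84, and those of Slc2a2 were 0.06, -0.29 and -0.44. As labelled, the log2 fold changes were -0.63 (SE 0.46), -0.64 (SE 0.46) and -0.23 (SE 0.18), each with an adjusted p of 0.935. Limma passed 0% of probe sets at 5 days, while 213 were lower and 172 higher at an unadjusted p under 0.05. Without experiment 1 the log2 fold changes were -1.30 for Kcnj11 (adjusted p = 0.779), -1.28 for Abcc8 (adjusted p = 0.779) and -0.37 for Slc2a2 (adjusted p = 0.802), from 2 pairs. These pairs include the library with the high 3' over 5' signal of GAPDH. Without experiment 2, which holds that library, the log2 fold changes were -0.15, -0.10 and -0.19. Without experiment 3 they were -0.45, -0.54 and -0.12, and none of these passed. With the labels of experiment 1 exchanged they were -1.10, -1.07 and -0.26 (adjusted p = 0.715 for each). Exchanged and fitted with all 18 arrays, Kcnj11 (adjusted p = 0.0103) and Abcc8 (adjusted p = 0.0206) passed as lower, where 0.908% of probe sets did, and Slc2a2 did not (adjusted p = 0.149). As labelled, the limma fit of all 18 arrays gave adjusted p = 0.390 for Kcnj11, 0.389 for Abcc8 and 0.356 for Slc2a2. The exchange was prompted by expression in these same arrays, and the sample labels give no sign of it. It turns round the pair in which the members ran opposite to the other pairs. The passes after exchange are therefore not evidence that the members fell. The fits with exchanged labels also include the library with the high 3' over 5' signal of GAPDH.

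The 5 probe sets ran opposite in sign to the median ratio of the ER stress genes in all 9 pairs. They were lower in the 8 pairs whose ER stress genes were higher and were higher in experiment 1 of 5 days, where those genes were lower, as was the case for 3.89% of tested probe sets. In experiment 2 of 5 days the 3 Kcnj11 probe sets spread widely. Their ratios there were -4.02 (1369782_a_at), -2.48 (1387698_at) and -1.60 (1391007_s_at), against -0.70, -1.18 and -0.99 in experiment 3. The first of these rests on a doxycycline signal of 117, beside 1892 in its control. This is the library with the high 3' over 5' signal of GAPDH, and the part of RNA quality in these ratios was not tested.

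**Figure D2:**
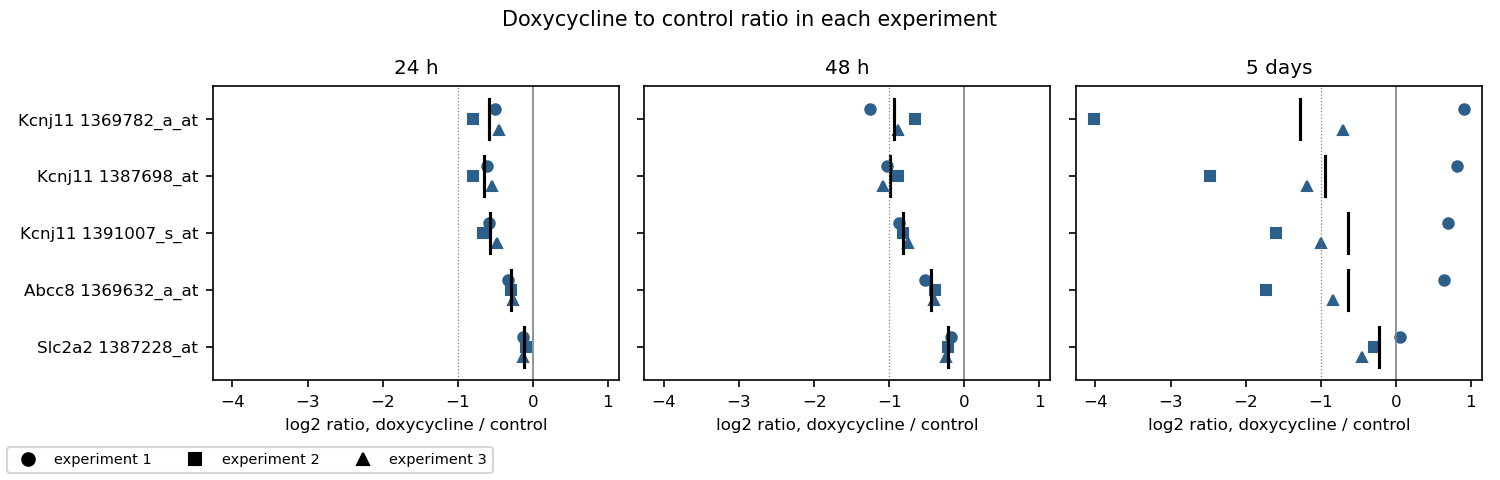
Log2 ratio of doxycycline to control for each probe set in experiments 1, 2 and 3 (symbols), with the mean as a bar, no change as a solid line and a 2-fold fall as a dotted line. At 24 h and 48 h the experiments lie close together and below 0, whereas at 5 days they range from 0.90 to -4.02 for Kcnj11 1369782_a_at.

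**Figure D3:**
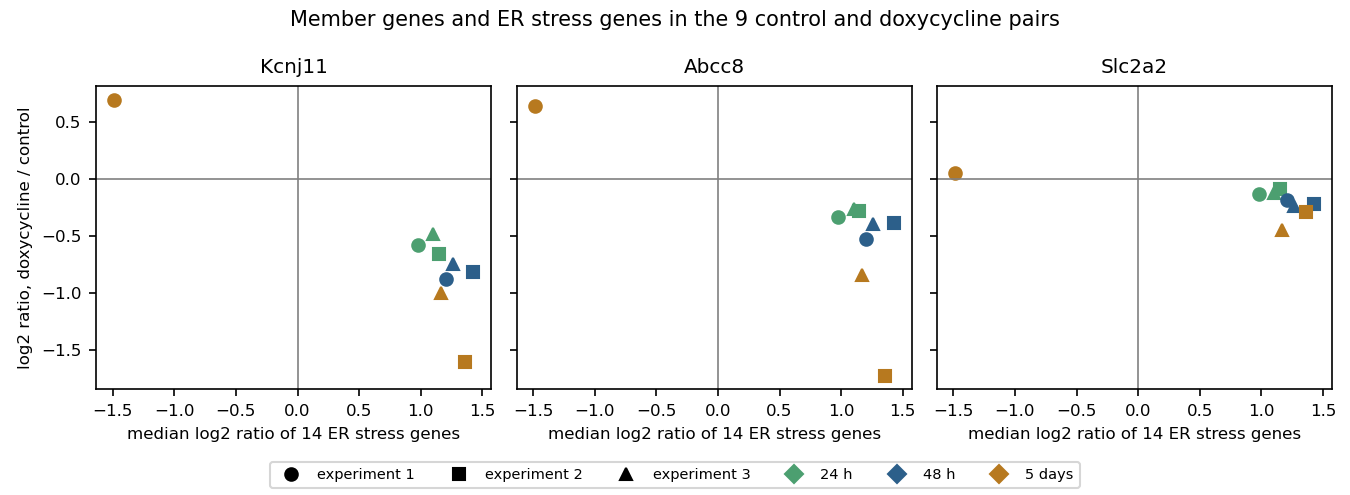
Log2 ratio of each gene (vertical axis) against the median log2 ratio of 14 ER stress genes (horizontal axis) in the 9 pairs of control and doxycycline arrays, coloured by time. The other pairs lie at a positive ER stress ratio and below 0 for all 3 genes, and experiment 1 of 5 days lies alone at -1.49 with ratios above 0.

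Ordered by mean signal over the 6 groups, Kcnj11 1391007_s_at ran from control 48 h (3138) through control 24 h (2790), control 5 days (2718), doxycycline 24 h (1879) and doxycycline 5 days (1799) to doxycycline 48 h (1793). Each neighbour in this order overlapped the next. Abcc8 was highest in control 48 h (2656) and control 24 h (2655), followed by control 5 days (2276), doxycycline 24 h (2164), doxycycline 48 h (1975) and doxycycline 5 days (1556), again with overlap between all neighbours. For Slc2a2 the order was control 48 h (16974), control 24 h (16503), doxycycline 24 h (15240), control 5 days (14908), doxycycline 48 h (14637) and doxycycline 5 days (12561), and only the last step was free of overlap. For all 3 genes the 5-day controls were the widest of the control groups, for Kcnj11 from 1725 to 3634.

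A pair of features accompanied the fall of Kcnj11 and were not used to choose it. First, Kcnj11 and Abcc8 lie next to each other in the order of RefSeq genes on assembly GRCr8, with 0 genes between them. Of the next 3 genes on either side, Nomo1 was the only one tested, the others being dim or listed with no probe set, and its log2 fold change was 0.15 at 24 h and 0.31 at 48 h (adjusted p = 0.0885). Second, glucagon (Gcg), an alpha-cell hormone that INS-1 lines can express, fell by 2.71 at 48 h (SE 0.11, adjusted p = 0.00669). At 24 h it was at -1.31 and did not pass (adjusted p = 0.0924). It was the only bright member of 7 measured markers of other islet cells, while Sst, Ppy, Pyy, Ghrl, Irx2 and Hhex were all dim. The summed signal of the 7 was 1603 to 2198 in control and 395 to 430 with doxycycline at 48 h. At 24 h the sums overlapped, at 447 to 2481 in control and 226 to 1227 with doxycycline. Fibronectin (Fn1), the 1 bright gene of 10 stromal markers, fell by 0.98 (adjusted p = 0.0143), and Vim was dim. Krt7, the 1 bright gene of 10 measured acinar and duct markers, was at -0.23 and did not pass. The summed beta-cell markers ranged from 119721 to 133834 in control and from 103642 to 119637 with doxycycline at 48 h. Of these 11 markers, 2 passed as lower and 9 were below 0, beside 1.19% and 52.4% of all tested probe sets. The part of cell composition in the fall of Kcnj11 was not tested.

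The rest of the glucose-sensing pathway was described from lists of 123 genes in all, of which 106 had a probe set. Each gene was taken by its brightest probe set, and 80 genes were tested. At 24 h limma passed 0 of the 80, while 8 were lower and 5 higher at an unadjusted p under 0.05, beside 6.94% lower and 7.75% higher of all tested probe sets. At 48 h the median log2 fold change over all tested probe sets was -0.01, and 52.4% of them were below 0. At an unadjusted p under 0.05, 12.5% of them were lower and 12.2% higher, against which the unadjusted counts below are to be read.

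Among the relatives of the KATP subunits, the genes for the vascular channel, Kcnj8 (Kir6.1) and Abcc9 (SUR2), were dim, with median signals of 21.1 and 18.1. Kcnj3 and Kcnj6, which encode G protein-gated potassium channels, were the 2 of 9 genes bright enough to be tested. At 48 h 0 passed, and neither was under an unadjusted p of 0.05. Their log2 fold changes at 48 h were 0.17 (adjusted p = 0.329) and 0.08 (adjusted p = 0.582).

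Of 12 genes of glucose transport and phosphorylation, 9 had a probe set, 4 were tested and 0 passed at 48 h, nor was any of the 4 under an unadjusted p of 0.05, with a median log2 fold change of -0.09. Slc2a1, which encodes the widespread transporter GLUT1, was at 0.07 (adjusted p = 0.747), and Slc2a4, which encodes the insulin-regulated GLUT4, at -0.21 (adjusted p = 0.275). Slc37a4, the transporter that carries glucose 6-phosphate into the ER, was at -0.16 (adjusted p = 0.250). The hexokinase genes Hk1 and Hk2 were dim.

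Downstream of phosphorylation, 0 of 14 tested glycolysis genes and 0 of 23 tested genes of mitochondrial coupling passed at 48 h, with medians of -0.09 and -0.07. At an unadjusted p under 0.05 there were 2 and 5, no larger a share than that of all tested probe sets. The largest differences were for Aldoc, a brain-type aldolase (-0.76, adjusted p = 0.0889), Pfkp, a phosphofructokinase (-0.29, adjusted p = 0.155), Pdk1, a kinase that inhibits pyruvate dehydrogenase (0.38, adjusted p = 0.0640), and Ucp2, a mitochondrial carrier protein (-0.32, adjusted p = 0.117). Of the channels that act after KATP closure, 10 were tested and 0 passed, 2 being under an unadjusted p of 0.05, again no larger a share than that of all tested probe sets, with a median of 0.04. Cacna1a, the pore of the P/Q-type calcium channel, was at -0.42 (adjusted p = 0.0615), and Kcnk3, a background potassium channel, at -0.29 (adjusted p = 0.431). On the 12 arrays of 24 h and 48 h, Aldoc, Ucp2 and Cacna1a passed as lower and Pdk1 as higher at 48 h, where 5.64% of all probe sets passed as higher.

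In a list of metallothioneins and zinc transporters (Slc30, the family of Slc30a8, and Slc39), the genes that passed moved upward. Of 22 genes, 15 were tested, 3 rose at 48 h and 0 fell, beside 2.33% higher and 1.19% lower of all tested probe sets, with a median of 0.08. At an unadjusted p under 0.05 there were 6 in either direction, beside 12.5% lower and 12.2% higher of all tested probe sets. Slc30a7, which encodes a zinc transporter of the Golgi, rose by 0.68 (SE 0.07, adjusted p = 0.0257), from a mean of 725 to 1164. Slc39a7, which releases zinc from the ER and Golgi, rose by 0.58 (SE 0.07, adjusted p = 0.0314), from 1714 to 2568, and Slc39a13, another transporter of the secretory pathway, rose by 0.49 (adjusted p = 0.0384). Slc30a7 and Slc39a7 were higher with doxycycline in 6 of 6 pairs at 24 h and 48 h.

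Of 18 transcription factors known from beta cells, among them regulators of Slc2a2, 13 had a probe set, 12 were tested, 1 fell at 48 h and 0 rose, beside 1.19% lower and 2.33% higher of all tested probe sets, with a median of -0.20. The 1 was Mafa, an activator of the insulin genes and of genes for glucose-stimulated secretion, which fell by 1.07 (SE 0.07, adjusted p = 0.0118), from a mean of 4689 to 2233. Its ratios were -1.12, -1.03 and -1.07 at 48 h and -0.30, -0.28 and -0.59 at 24 h, where it did not pass (adjusted p = 0.179). At 48 h 10 of the 12 were below 0, beside 52.4% of all tested probe sets, and the highest was at 0.17. At an unadjusted p under 0.05 there were 5 in either direction, beside 12.5% lower and 12.2% higher of all tested probe sets. Others, chosen after their values were seen, had lower values that did not pass at 48 h. These were Isl1 (-0.52, adjusted p = 0.0686), Pdx1 (-0.45, adjusted p = 0.0759), Nkx2-2 (-0.45, adjusted p = 0.0615) and Neurod1 (-0.32, adjusted p = 0.0900), all of which passed on the 12 arrays of both times, where 4.73% of all tested probe sets passed as lower.

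**Figure D4:**
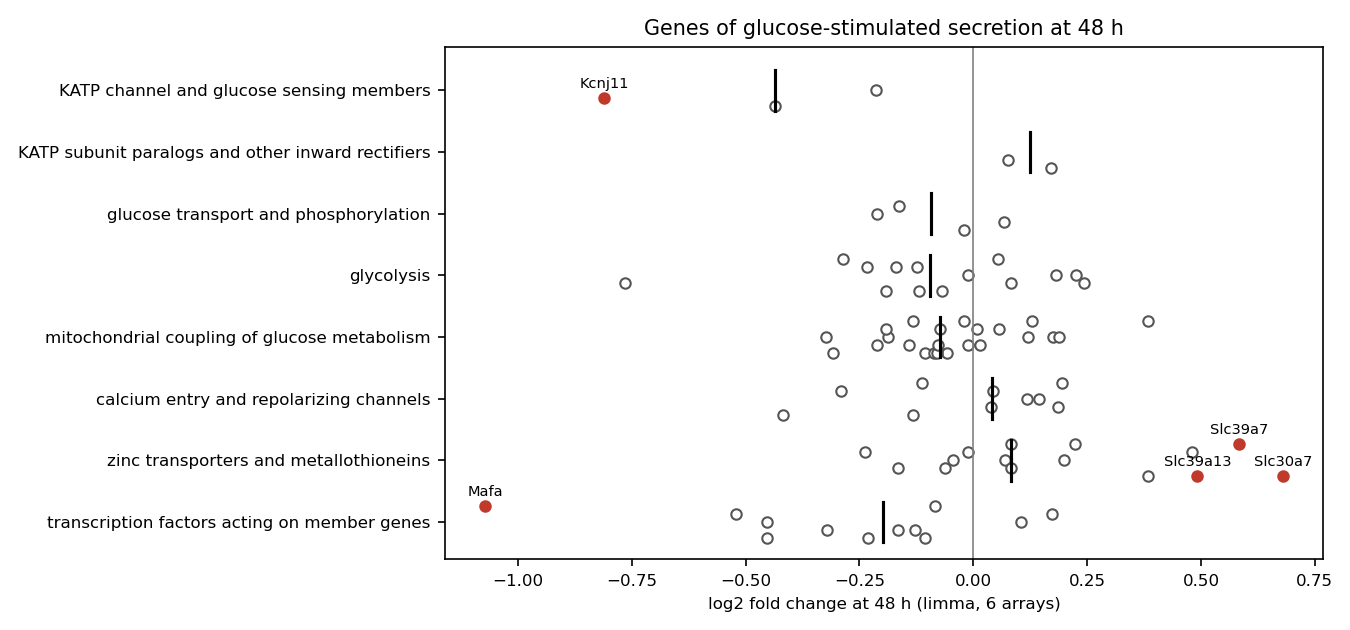
Log2 fold change at 48 h of each tested gene of 8 lists, with filled red points for genes that passed at an adjusted p under 0.05 and black bars for the list medians. Kcnj11 and Mafa passed as lower, Slc30a7, Slc39a7 and Slc39a13 as higher, and the lists of glucose transport, glycolysis, mitochondrial coupling and later channels held no gene that passed.

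The 18 arrays were searched for the genes whose signal was most like that of each member, by Pearson's r of log2 signals, and the values are descriptive because the arrays share treatment, time and the libraries that stand apart. For Kcnj11 these were Synpo2, an actin-binding protein of muscle (r = 0.932), Pcsk2, the prohormone convertase PC2, which cleaves proinsulin (0.904), and St3gal1, a sialyltransferase (0.879). Over the 12 arrays of 24 h and 48 h alone they were 0.944, 0.856 and 0.825. For Abcc8 they were St3gal1 (0.953), Gnao1, a G protein alpha subunit (0.909), and Pcsk2 (0.904), the last falling to 0.613 without the 5-day arrays. For Slc2a2 they were Fyb1, an adaptor protein (0.945), Tmem163, a zinc-binding membrane protein (0.938), and Fam163b (0.926).

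Of these 7 different genes, 6 passed as lower at 48 h, Synpo2 by 1.04 (adjusted p = 0.0233) and Pcsk2 by 0.69 (adjusted p = 0.0260), and St3gal1 was at -0.71 (adjusted p = 0.0550). Since they were chosen by likeness over the same arrays, this count describes them and supports nothing about the members. Kcnj11 and Abcc8 correlated at 0.896 over 18 arrays and 0.875 over the 12. Slc2a2 correlated less with both, at 0.551 with Kcnj11 and 0.530 with Abcc8, and the Kcnj11 probe sets at 0.808 to 0.969 among themselves.

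**Figure D5:**
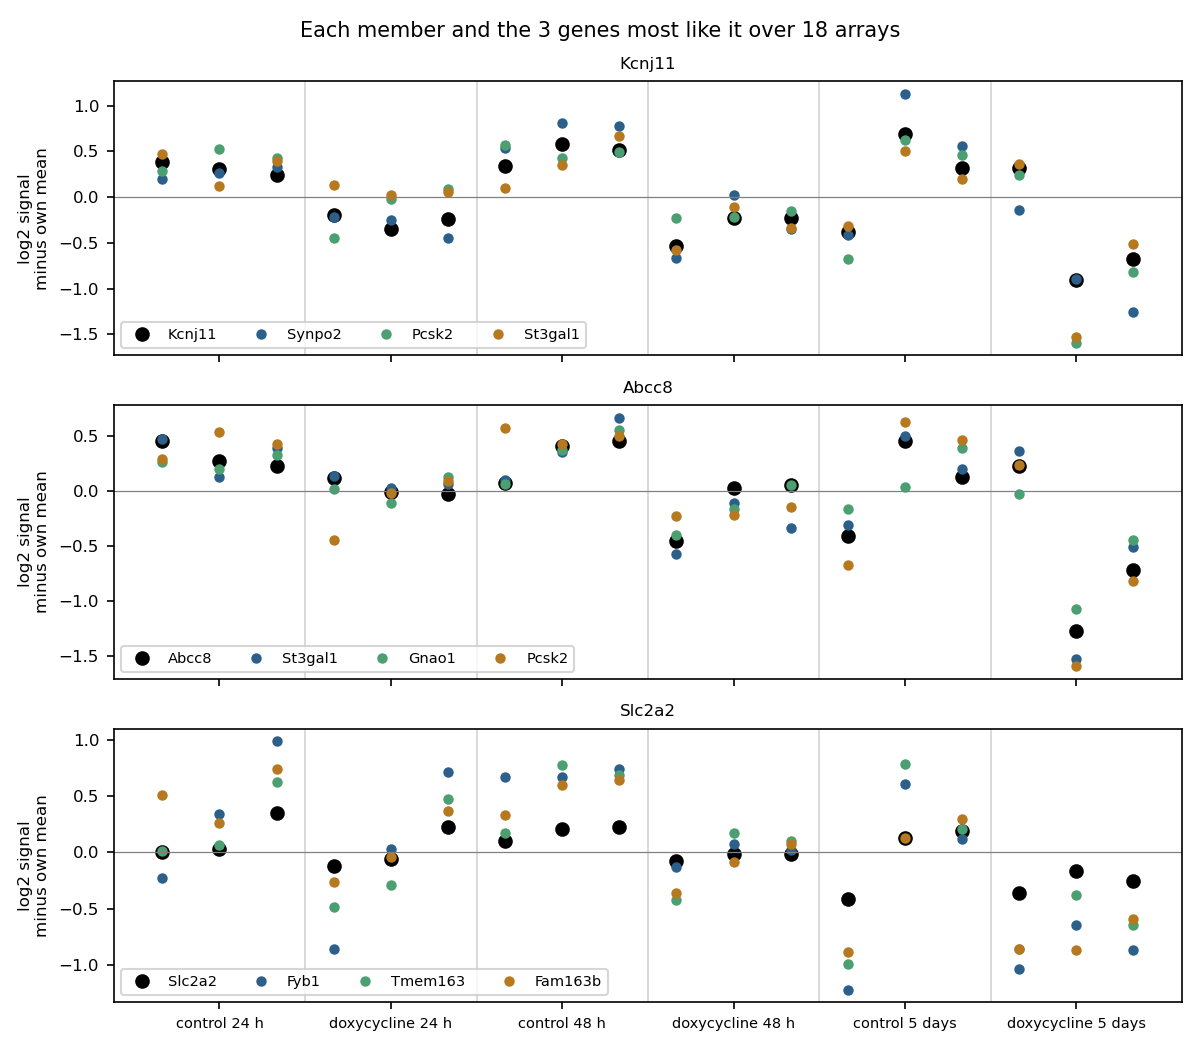
Log2 signal minus each gene's own mean over 18 arrays, for each member (large black points) and the 3 genes most like it (small coloured points), with 3 arrays per group in the order of experiments 1, 2 and 3. Doxycycline arrays lie below control arrays at 24 h and 48 h for Kcnj11. In its 5-day groups experiment 1 is the lowest control array and the highest doxycycline array. For Slc2a2 experiment 1 is the lowest array of both 5-day groups.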

How the data were processed

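Total RNA of clone #4S2 cells was hybridized by the authors to Affymetrix rat arrays, 18 in 6 groups of 3. The authors deposited linear signal intensities, scaled so that the 2% trimmed mean was 500.1 to 500.2 on every array. The sources used here name no program for this step, and no detection calls were used. Groups and experiment numbers came from the labels. Replicates were independent experiments. Same-numbered arrays were taken as pairs, since the study compares doxycycline with control within each experiment. Deviations from group means correlated at 0.109 to 0.667 in the 9 pairs, lowest at 5 days.

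Of 31099 probe sets, 57 controls were left out. Signals were quantile-normalized, floored at the 10th percentile (5.99), put on the log2 scale and filtered to the brighter 50% by mean signal, 15521 probe sets. The others are called dim. Each time was fitted alone with limma 3.58.1 (R 4.3.3), with the pair as a block, and p-values were adjusted over all tested probe sets (Benjamini-Hochberg, threshold 0.05). The change between times used the 12 arrays of 24 h and 48 h. The test was checked on simulated 24 h and 48 h arrays, with noise drawn independently for each probe set. That check did not cover the 5-day libraries that stand apart. Alternatives were no further normalization, 16 units added in place of the floor, no filter, no block, any probe set, left-out replicates, fits of 12 or 18 arrays, exchanged labels at 5 days and the methods' t-test. The 18-array fits with exchanged labels at 24 h and 48 h were added after seeing the data. Names came from the platform annotation, 20758 of 20826 of them matched to RefSeq by gene number. The number of arrays limits the precision.

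The text names every member probe set, the 2 genes of each pathway list with the largest 48 h change, the 3 genes most like each member and 3 ER stress genes. Other genes named, such as Slc39a13, Gcg, Fn1 and Pdx1, were chosen after their values were seen. The members and lists were chosen with earlier results of these data known.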

Additional observations from a re-analysis of the deposited data

How the results depend on the processing

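Of the 5 genes, the count passing at 48 h was 1 as reported (Kcnj11) and ranged from 0 to 2. It was 0 with no filter on dim probe sets (Kcnj11 adjusted p = 0.344), with all 18 arrays as labelled (0.405), under the methods' t-test after adjustment (0.105) and without replicate 1, 2 or 3 (0 to 0, with adjusted p between 0.0789 and 0.144). It was 2, Abcc8 joining, with no further normalization, with 16 units added and with 12 arrays (adjusted p of Abcc8 0.0489, 0.0467 and 0.0101). Without the replicate block it was 1 (Kcnj11 adjusted p = 0.0271), and the block changed no other call. At 24 h the count was 0, and 1 (Kcnj11) with 12 arrays. At 5 days it was 0, and 2 (Kcnj11 and Abcc8) with experiment 1 exchanged and 18 arrays. That exchange was prompted by expression in these arrays and not by the labels. The log2 fold change of Kcnj11 at 48 h lay between -0.84 and -0.78 under the alternatives that could change it. These were no further normalization, 16 units added and a left-out replicate. The filter, the block, the fits of 12 or 18 arrays, exchanged labels at 5 days and the t-test leave this estimate unchanged by design. In untreated cultures, 48 h against 24 h, the small difference of Abcc8 turned to 0.020 with no further normalization and ranged from -0.077 to 0.11 with 1 replicate left out, while that of Slc2a2 ranged from -0.013 to 0.16 with 1 left out and was 0.31 with no further normalization. Fits without a replicate have fewer arrays, and the causes of the other changes were not tested. The error at 5 days includes the libraries that stand apart.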
